A study of Arabidopsis thaliana with 12 samples.

Results

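The genes described here are those of Arabidopsis thaliana rosettes whose response to the bou-2 mutation differed between day and night. They were chosen by the contrast (bou-2 day minus WT day) minus (bou-2 night minus WT night), fitted over the 12 libraries of the series, with each gene read from its transcript with the highest mean level in WT. With edgeR's quasi-likelihood test and a Benjamini-Hochberg adjusted p under 0.05, 242 of 20458 genes passed (1.18%). The mutant plants carry bou-2, a T-DNA insertion in the BOU gene in the Col-0 background, and the wild type (WT) is Col-0. All plants were raised for 35 days at 3000 ppm CO2 under 12 h of light and 12 h of dark and were moved to ambient CO2 24 h before harvest, so the WT plants share this shift. Leaves were sampled after the onset of light (day) and before it (night), 2 h from it by the labels, while the study's methods give other intervals and whole rosettes. A source field names the end of the day for samples whose titles name its beginning, and the titles were followed. There were 3 libraries in each of bou-2 day, WT day, bou-2 night and WT night. The mutant is 1 insertion allele, and each time is 1 harvest, so the allele and the harvest cannot be told apart from the genotype and the time.

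BOU is a carrier of the inner mitochondrial membrane that glycine decarboxylase needs for full activity. Glycine decarboxylase turns the glycine made in photorespiration into serine in the light, and plants with little of this activity grow poorly in air and recover at high CO2. Many leaf transcripts follow the day on their own account, under the circadian clock, light and the sugar state of the leaf. A gene can therefore be changed in the mutant at one time and not at the other, or be changed in opposite directions.

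The libraries held 15911356 to 33046562 estimated counts. Spread within a group was widest among the 3 libraries of WT day, with a median absolute log2 difference of each from the other two of 0.271 to 0.323, against 0.141 to 0.221 in the 9 other libraries. TPM is the deposited level of a transcript, scaled to library size and transcript length. BOU itself (AT5G46800, chromosome 5, 18988588 to 18990867, coordinates of TAIR10.1) had 80.6, 80.7 and 80.2 TPM in bou-2, against 230.4, 139 and 171 TPM in WT at day, and 65.2, 67 and 65.5 TPM in bou-2, against 153, 162 and 176 TPM in WT at night. Its bou-2 effect was -1.25 at day (adjusted p = 2.35e-04) and -1.41 at night (adjusted p = 1.62e-04) on the log2 scale, and the difference between the times did not pass the test (0.17, adjusted p = 0.743). The 4 leaf markers summed to 23196 to 28137 TPM in bou-2 day libraries and to 40652 to 53056 TPM in WT day libraries. At night they summed to 27342 to 29453 TPM in bou-2 and to 46297 to 47219 TPM in WT. They were thus lower in bou-2 at both times, and the part of this in the results was not tested. The flower and seed markers stayed under 2 summed TPM in each library. Enough counts for a test were found for 4 of 4 leaf, 2 of 4 root, 1 of 6 flower, 0 of 4 seed and 4 of 4 vascular markers. None of those tested passed the test of the difference (edgeR, and also DESeq2), which says nothing of seed and little of flower. In bulk leaves, fewer cells of a type and less RNA per cell cannot be told apart.

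Of the 242 genes, 132 had a bou-2 effect that was lower at day than at night (0.645% of the genes tested), and 110 had one that was higher at day (0.538%). The size of the difference had a median of 1.51 on the log2 scale in the 132 genes, with a range of 0.57 to 7.53, and a median of 1.12 in the 110 genes, with a range of 0.57 to 3.37. Over all genes tested the median difference was -0.03. In 61 genes the bou-2 effects at the 2 times were both called and had opposite signs (0.298% of the genes tested). Of these, 41 were lower in bou-2 at day and higher in bou-2 at night, and 20 were higher at day and lower at night. A further 20 genes were called at both times with 1 sign and differed in size, 78 were called in bou-2 against WT at day alone and 83 at night alone. The bou-2 effect itself was called for 27.6% of all genes at day and for 27% at night. These shares and that of the difference do not compare like for like, since the difference was tested with a larger error. Its median standard error over all genes was 0.24, against 0.171 at day and 0.17 at night. For 16.5% of the genes the difference had an unadjusted p under 0.05 in edgeR's test. In 50 of the 61 genes of opposite sign the 3 bou-2 libraries did not overlap the 3 WT libraries at either time, a pattern that 260 genes (1.27%) had in all. The 61 genes were chosen from these same libraries, so the separation follows largely from the choice and is a description only. This also holds for the separation given for single genes below.

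**Figure D1:**
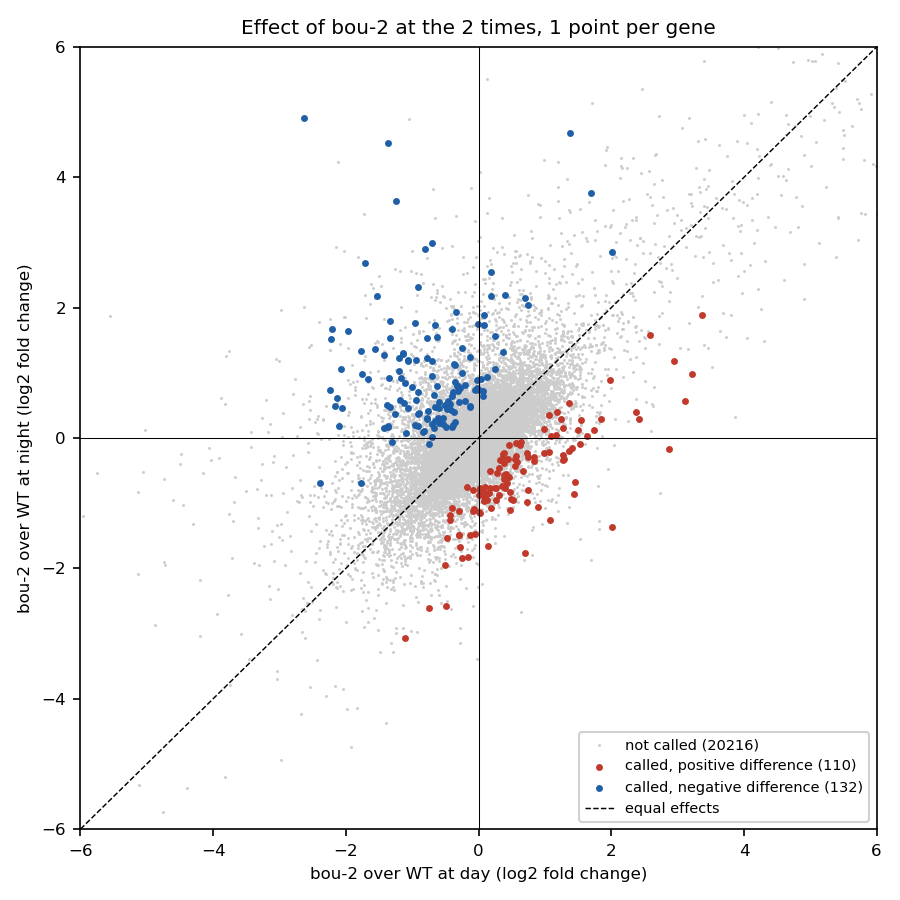
Each point is 1 of the 20458 genes tested, with its bou-2 over WT log2 fold change at day on the x axis and at night on the y axis. The 110 genes with a positive difference between the times are red, the 132 with a negative one are blue and the other 20216 are grey; 168 genes lie beyond the axis limits of 6. Called genes lie away from the diagonal of equal effects, and the 61 genes of opposite sign fall above left and below right of the axes' crossing.

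Read as day against night within a genotype, more of these genes were called in bou-2 than in WT. Of the 110 genes with a positive difference, 89 were higher at day than at night in bou-2 and 3 were lower, against 23 higher and 34 lower in WT. Of the 132 genes with a negative difference, 9 were higher and 97 lower at day in bou-2, against 53 higher and 9 lower in WT. The median log2 ratio of day over night was 0.86 in bou-2 and -0.22 in WT for the first group, and -0.99 in bou-2 and 0.42 in WT for the second. For each gene the ratio in bou-2 minus that in WT equals the contrast by which the genes were chosen. Which genotype had the higher ratio in each group was thus fixed by the choice, and the counts and medians describe the chosen genes only. Day and night differed for 15.4% of all genes in bou-2 and for 9.46% in WT. With limma on log2(TPM + 1) the counts were 123 positive and 92 negative. The edgeR counts also rested on single libraries. Without WT day replicate 3 they were 548 positive and 534 negative, which held all 242 genes, and without bou-2 day replicate 3, 27 positive and 34 negative. Each of the 242 genes kept its sign under each alternative that gave a value, and 46 of them also kept their call under all 24 alternatives.

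**Figure D2:**
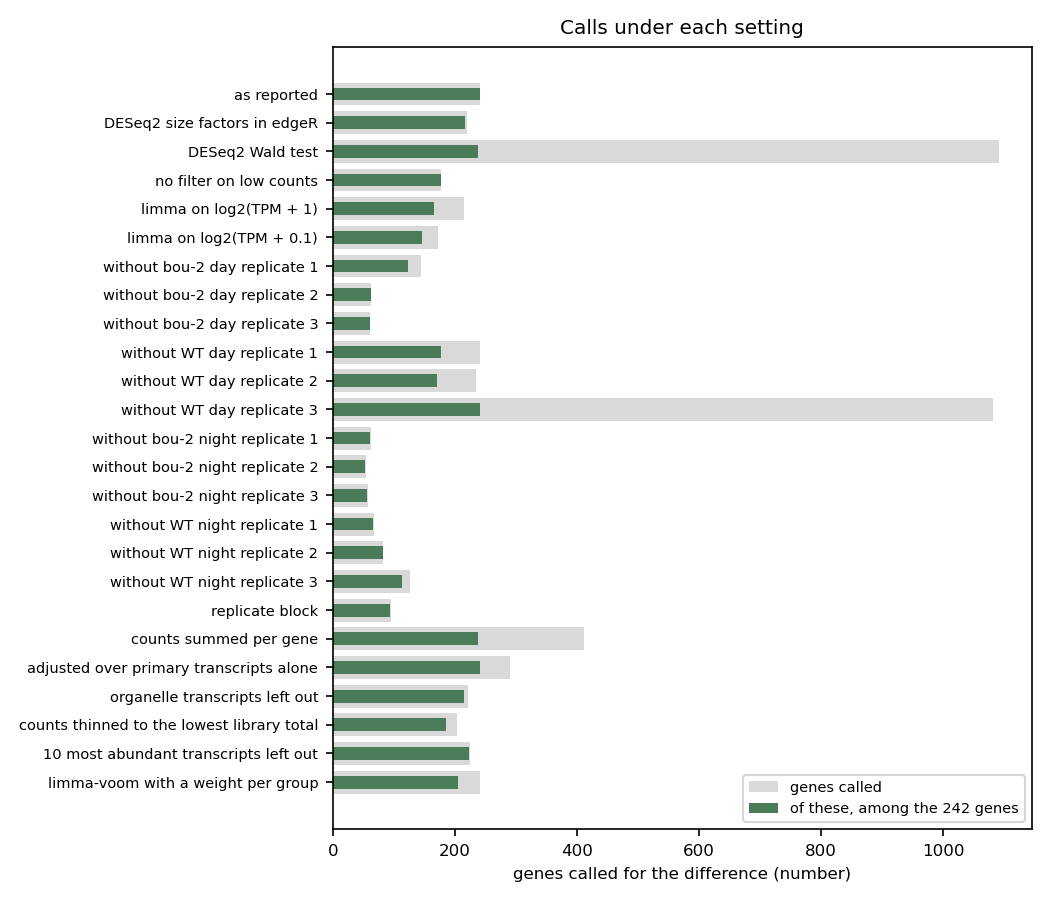
The number of genes called for the difference (x axis) is drawn for each processing setting (y axis) as a grey bar, with those among the 242 genes as reported in green. The grey bar falls to between 54 and 144 when 1 library of bou-2 day, bou-2 night or WT night is left out and reaches 1082 without WT day replicate 3, where the green bar holds all 242.

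Genes that were lower in bou-2 at day and higher in bou-2 at night included members of the DUF506 family of unknown function. AT3G07350 (chromosome 3, 2347186 to 2348791), a DUF506 protein, had 0.619, 0.59 and 0.793 TPM in bou-2, against 3.16, 3.16 and 2.4 TPM in WT at day. At night the level was 11.2, 13 and 9.35 TPM in bou-2, against 3.69, 3.55 and 2.56 TPM in WT. Thus bou-2 lay below each WT library at day and above each at night, and the difference of the log2 effects was -3.88 (standard error 0.30, adjusted p = 0.00129). AT2G20670, another DUF506 gene, had 4.63, 5.26 and 5.55 TPM in bou-2, against 9.33, 12.4 and 8.57 TPM in WT at day, and 19.8, 18.5 and 16.3 TPM in bou-2, against 7.97, 7.68 and 6.54 TPM in WT at night. Its libraries were again separate in opposite directions, with a difference of -2.26 (standard error 0.23, adjusted p = 0.00281). By their deposited descriptions, 4 of 9 DUF506 genes tested had a negative difference and 0 a positive one, beside 0.645% and 0.538% of all genes. AT4G32480 of this family was at 3.05 ± 0.724 TPM in bou-2 and 7.17 ± 4.35 TPM in WT at day, and 17 ± 1.99 TPM in bou-2 and 5.46 ± 0.52 TPM in WT at night. AT3G07350 and AT2G20670 kept their calls under all 24 alternatives, while AT4G32480 missed the threshold on removal of any of bou-2 day 1 to 3, bou-2 night 1 to 3 or WT night 1 to 3, and also under the replicate block (highest adjusted p 0.0866; libraries are named by group and replicate number). Families and genes named from them were chosen after their values were seen.

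Opposite changes were also found in an aspartyl protease, a zinc finger protein and kelch proteins. AT5G19120 (chromosome 5, 6414488 to 6415907), which encodes an aspartyl protease family protein, had 1.76, 1.6 and 1.91 TPM in bou-2, against 9.75, 9.3 and 4.29 TPM in WT at day. It had 27.7, 24.3 and 20.9 TPM in bou-2, against 8.86, 7.5 and 7.28 TPM in WT at night, a difference of -3.74 (standard error 0.35, adjusted p = 0.00228). The bou-2 libraries lay below the WT libraries at day and above them at night. ATCTH (AT2G25900, chromosome 2, 11041331 to 11043256), a zinc finger protein of the CCCH type, had 3.25, 2.26 and 1.93 TPM in bou-2, against 9.88, 9.49 and 11.5 TPM in WT at day, and 26.4, 30.8 and 22.3 TPM in bou-2, against 15.3, 16.5 and 16.4 TPM in WT at night. Its difference was -2.75 (standard error 0.26, adjusted p = 0.00235). AT3G59940 (chromosome 3, 22142856 to 22144439), a galactose oxidase/kelch repeat protein, had 8.58, 9.85 and 11 TPM in bou-2, against 19.2, 25.8 and 24.8 TPM in WT at day, and 47.5, 58.5 and 61.1 TPM in bou-2, against 29.96, 27.4 and 24.2 TPM in WT at night. The groups did not overlap at either time, and the difference was -2.27 (standard error 0.24, adjusted p = 0.00281). The kelch gene AT1G80440 showed the same order, with 1.13 ± 0.43 TPM in bou-2 and 3.57 ± 1.56 TPM in WT at day, and 21 ± 1.33 TPM in bou-2 and 7.71 ± 1.01 TPM in WT at night. The difference of AT1G80440 was -3.11 (standard error 0.42, adjusted p = 0.00947). Of 58 genes described as kelch proteins, 3 had a negative and 0 a positive difference, beside 0.645% and 0.538% of all genes. AT5G21940, AT5G59080 and AT3G15450 followed the same pattern. AT5G21940, without a description, had 10.2, 11 and 10.9 TPM in bou-2, against 20.9, 23.5 and 16.4 TPM in WT at day, and 106, 100.02 and 96 TPM in bou-2, against 50.5, 53.6 and 58 TPM in WT at night, and a difference of -1.80 (standard error 0.16, adjusted p = 0.00228). AT5G59080 had 5.34 ± 0.744 TPM in bou-2 and 11.2 ± 0.938 TPM in WT at day, and 13.8 ± 0.442 TPM in bou-2 and 8.55 ± 0.527 TPM in WT at night, and a difference of -1.76 (standard error 0.19, adjusted p = 0.00338). AT3G15450, an aluminium induced protein, reached 111, 102 and 65.8 TPM in bou-2 at night, against 21.2, 15.8 and 14.7 TPM in WT. At day it had 12.5, 7.62 and 10.3 TPM in bou-2, against 16.3, 25 and 11.6 TPM in WT, where the groups overlapped, and the difference was -3.23 (standard error 0.41, adjusted p = 0.00799). Each gene of these classes given with its difference kept its call under all 24 alternatives.

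**Figure D3:**
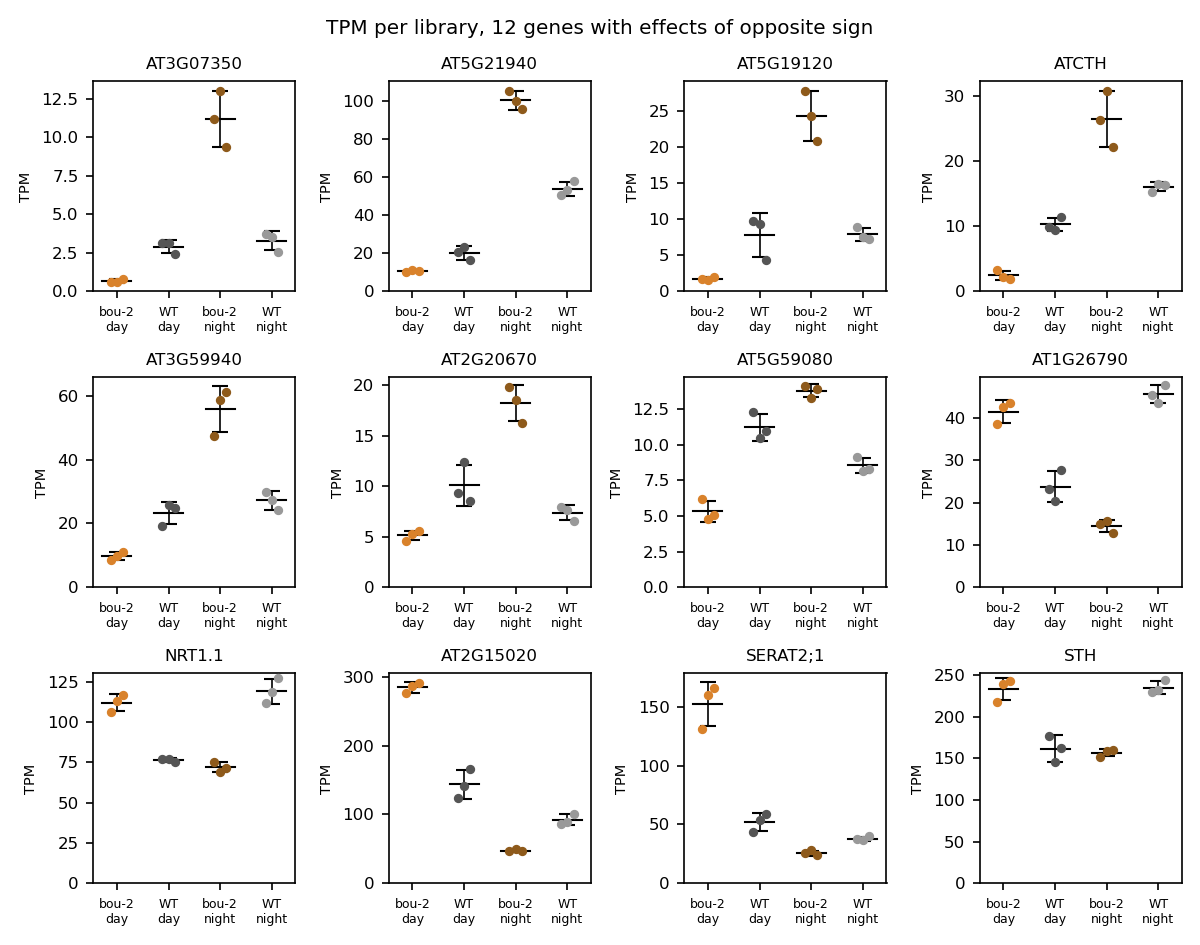
Transcript level in each library (TPM, linear axis from 0) is shown for 12 genes whose bou-2 effect had opposite signs at the 2 times, in bou-2 and WT at day and in bou-2 and WT at night, 3 points a group with the mean as a line and the SD as error bars. For AT3G07350 the bou-2 points lie at 0.59 to 0.793 TPM at day, below WT, and at 9.35 to 13 TPM at night, above WT; for NRT1.1 the order is the reverse.

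Some genes of the trehalose phosphate synthase (TPS) family, which acts in sugar signalling, had a negative difference too. By description 3 of 7 were called, all negative, beside 0.645% of all genes, and 6 of the 7 lay below 0. TPS5 went the other way, at 0.91 (adjusted p = 0.119), and was not called. ATTPS6, a further trehalose phosphate synthase, was missed by the match of descriptions. It was not called either, at -0.50 (adjusted p = 0.0555 in edgeR). Class II trehalose phosphate synthase proteins belong to the family that makes trehalose 6-phosphate, a signal of sucrose supply, and several of them are known as transcripts that respond to sugar starvation. TPS8 (AT1G70290, chromosome 1, 26470795 to 26474833) had 3.33, 2.87 and 3.17 TPM in bou-2, against 4.69, 8.22 and 4.1 TPM in WT at day. Its night libraries held 26, 25.6 and 24.6 TPM in bou-2, against 10.6, 9.56 and 10.9 TPM in WT, and the difference was -2.13 (standard error 0.29, adjusted p = 0.00947). TPS11 had 6.34, 5.86 and 6.89 TPM in bou-2, against 3.58, 6.2 and 3.88 TPM in WT at day, and 29.6, 30.8 and 29.1 TPM in bou-2, against 6.46, 6.46 and 5.21 TPM in WT at night. Its effect was 0.40 at day (adjusted p = 0.156) and 2.20 at night (adjusted p = 9.12e-05), so that the night effect alone passed the test, and the difference was -1.80 (standard error 0.26, adjusted p = 0.0144). TPS10 was higher in bou-2 at both times, with 14.8 ± 2.86 TPM in bou-2 and 8.42 ± 2.25 TPM in WT at day, and 55.3 ± 3.26 TPM in bou-2 and 12.5 ± 1.12 TPM in WT at night, a difference of -1.30 (standard error 0.22, adjusted p = 0.028). These 3 were the called members of 16 sugar signalling genes tested, each with a negative difference, and the median of the 16 was -0.28. Without WT day replicate 3, and also in DESeq2, 5 of the 16 were negative and 1 was positive. Over all 20458 genes tested, 534 were negative and 548 positive without that library, and 508 and 583 in DESeq2. These totals are the background for later list counts under the 2 settings. The call of TPS8 held under all 24 alternatives. TPS11 missed the threshold on removal of bou-2 night 2 (highest adjusted p 0.0542), and TPS10 on removal of any of bou-2 day 1 to 3, bou-2 night 1 to 3 or WT night 1 to 3, and also with limma on log2(TPM + 0.1) and under the replicate block (highest adjusted p 0.0845). Outside the rule for named genes, BT5, a BTB and TAZ domain protein, had 3.82 ± 0.101 TPM in bou-2 and 7.98 ± 2.59 TPM in WT at day, and 21 ± 4.25 TPM in bou-2 and 7.96 ± 1.97 TPM in WT at night, a difference of -2.42 (standard error 0.36, adjusted p = 0.0164). It missed the threshold on removal of bou-2 day 3 (highest adjusted p 0.0555). BT3 of the same family had a positive difference, 0.96 (standard error 0.15, adjusted p = 0.0214), and missed the threshold on removal of any of bou-2 day 2 and 3 or bou-2 night 1 to 3 (highest adjusted p 0.0768).

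Stretches of the DNA upstream of genes with a negative difference are shown, since the I-box, a light-responsive motif (GATAAG), was found there in a larger share of promoters than over all genes. In the windows from 250 bases before to 50 after the start (RefSeq, TAIR10.1; 20268 of the 20458 genes tested and 241 of the 242 called had one), it was found on either strand in 27.3% of the 132 genes with a negative difference and in 11.9% of those with a positive one, against 14.9% of all. In the same order, the G-box (CACGTG) was found in 13.6%, 4.59% and 8.73%. The lines give 30 bases on the strand of the gene, with the motif in capitals and the I-box reading CTTATC where it lies on the other strand. TPS8 is at chr1:26474929-26474958 (minus strand), TPS11 at chr2:8108716-8108745 (plus strand), AT3G15450 at chr3:5212883-5212912 (plus strand), AT5G19120 at chr5:6414281-6414310 (plus strand) and PRR7 at chr5:642214-642243 (minus strand).
TPS8: ctcaaaataaaaGATAAGaagataagaaga
TPS11: taaccacacgcgCTTATCtaacggttcaga
AT3G15450: taaaaagaaacgGATAAGaacacgtaagac
AT5G19120: aacatcctttcaCACGTGccaaaaatcatc
PRR7: tacccaccattaCACGTGtcagttcaaaaa

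The first 3 lines hold an I-box in capitals and the other 2 a G-box. The TPS8 line also holds a second I-box, left in lower case, 105 to 100 bases before the start. The evening element of clock-controlled genes (AAAATATCT) was found in 5.3% of the genes with a negative difference, 3.67% of those with a positive one and 2.99% of all. Of the genes of opposite sign, 4 of the 41 that were lower in bou-2 at day and higher at night held one, and 0 of the 20 with the reverse signs. The DRE core (GCCGAC) was found in 9.09% of the genes with a negative difference, 1.83% of those with a positive one and 3.73% of all. For the W-box (TTGACC) the shares were 12.9%, 11.9% and 14.2%, for the CCA1-binding site (AAAAATCT) 7.58%, 7.34% and 8%, for the telo-box (AAACCCTA) 3.03%, 0% and 5.66%, and for the heat shock element 3.03%, 0% and 0.538%. None of these motifs contains another. A match is a description of the letters and no test was made of the shares. Evening elements are shown because genes of both directions held one, with the element in capitals on the strand of the gene. AT3G59940 at chr3:22142764-22142793 (plus strand) and EPR1 at chr1:6308274-6308303 (minus strand) had a negative difference, and COL2 at chr3:489637-489666 (minus strand) a positive one.
AT3G59940: ttgttttcggAAAATATCTataacaaaata
EPR1: taatcacaaaAAAATATCTtcttcataatt
COL2: ataagttaccAAAATATCTtcttgttacta

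Genes of the clock, light signalling and light harvesting lists that edgeR called had negative differences, while DESeq2 also called positive ones. The B-box factors described below, which also act in light and clock responses, were called positive in edgeR. PRR7 (AT5G02810, chromosome 5, 637681 to 642030), a pseudo-response regulator that represses the morning genes of the clock, had 21, 19.8 and 26.1 TPM in bou-2, against 37.5, 33.9 and 28.6 TPM in WT at day. At night it had 3.06, 2.91 and 5.32 TPM in bou-2, against 0.947, 1.09 and 1.1 TPM in WT. Its bou-2 effect was -0.66 at day (adjusted p = 0.0286) and 1.74 at night (adjusted p = 5.22e-04), a difference of -2.40 (standard error 0.29, adjusted p = 0.00674), and its call held under all 24 alternatives. EPR1, a MYB-like factor of the CCA1 family, was at 9.12 ± 1.33 TPM in bou-2 and 6.63 ± 0.612 TPM in WT at day, and at 4.17 ± 0.343 TPM in bou-2 and 1.55 ± 0.105 TPM in WT at night. Its difference was -0.95 (standard error 0.18, adjusted p = 0.0404). These 2 were the called members of the 15 morning clock genes tested, both negative, and the median of the 15 was 0.02. Over all genes tested, 0.645% were called negative and 0.538% positive in edgeR, the background for each list count here and below. Where 1 gene of a list was called, the count is a description only. In DESeq2 2 of the 15 were negative and 2 positive. Of 11 evening clock genes, 0 were called in edgeR's quasi-likelihood test and 1 with a positive difference in DESeq2. PIF4, a bHLH factor that promotes growth and is bound by phytochrome, had 5.36, 5.36 and 5.63 TPM in bou-2, against 13.9, 10.8 and 14.8 TPM in WT at day, and 1.18, 0.932 and 1.21 TPM in bou-2, against 0.827, 0.911 and 0.973 TPM in WT at night, a difference of -1.54 (standard error 0.23, adjusted p = 0.0181). It was the 1 called gene of 19 light signalling genes, of which DESeq2 called 3 negative and 1 positive. LHCB2.2, an antenna protein of photosystem II, had 946, 844 and 698 TPM in bou-2 at day, against 1987, 1615 and 2619 TPM in WT. At night the level was 259, 312 and 253 TPM in bou-2, against 225, 225 and 239 TPM in WT, and the difference was -1.58 (standard error 0.28, adjusted p = 0.0326). It was the 1 called gene of 20 light harvesting genes, whose median was -0.47 and of which DESeq2 called 3 negative and 1 positive. It may share reads with close copies, so its count is uncertain.

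The called B-box zinc finger factors, which act in light and clock responses, had positive differences. STH (AT2G31380, chromosome 2, 13381767 to 13383470) had 217, 239 and 243 TPM in bou-2, against 177, 146 and 162 TPM in WT at day. Its night libraries held 152, 158 and 159.9 TPM in bou-2, against 229, 232 and 244 TPM in WT, so that the groups were separate in opposite directions, and the difference was 1.12 (standard error 0.13, adjusted p = 0.00582). BBX16 was lower in bou-2 at both times, but by less at day. It had 129, 117 and 121 TPM in bou-2, against 166, 149 and 168 TPM in WT at day, and 4.84, 4.24 and 6.23 TPM in bou-2, against 25.7, 25 and 33.9 TPM in WT at night, a difference of 2.08 (standard error 0.21, adjusted p = 0.0027). COL2 had 236 ± 14.6 TPM in bou-2 and 184 ± 32.8 TPM in WT at day, and 177 ± 8.43 TPM in bou-2 and 317 ± 13.4 TPM in WT at night, a difference of 1.21 (standard error 0.20, adjusted p = 0.0285). BBX31 had 90.4 ± 6.49 TPM in bou-2 and 63.1 ± 11.9 TPM in WT at day, and 17.3 ± 0.925 TPM in bou-2 and 27.3 ± 3.57 TPM in WT at night, a difference of 1.17 (standard error 0.21, adjusted p = 0.0319). Of the 12 B-box genes listed, 3 were called, all positive (STH, COL2 and BBX31). By description 5 of 27 were positive and 0 negative, with BBX16 and BBX18 among them, beside 0.538% and 0.645% of all genes. The calls of STH and BBX16 held under all 24 alternatives, whereas single libraries ended others. PIF4 missed the threshold on removal of any of bou-2 day 3, bou-2 night 1 and 3 or WT night 1 and 2, and also after thinning (highest adjusted p 0.0742). COL2 missed it on removal of any of bou-2 day 2 and 3, bou-2 night 1 to 3 or WT night 1 to 3, and also under the replicate block (highest adjusted p 0.0908), BBX31 on removal of any of bou-2 day 1 and 2, bou-2 night 1 to 3 or WT night 1 to 3, and also under the replicate block (highest adjusted p 0.102) and LHCB2.2 on removal of any of bou-2 day 1 to 3, bou-2 night 1 to 3 or WT night 1 to 3, and also under the replicate block (highest adjusted p 0.0993). EPR1 kept its call under 7 of the 24 alternatives and lost it without any 1 library other than WT day replicate 3 (highest adjusted p 0.16).

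**Figure D4:**
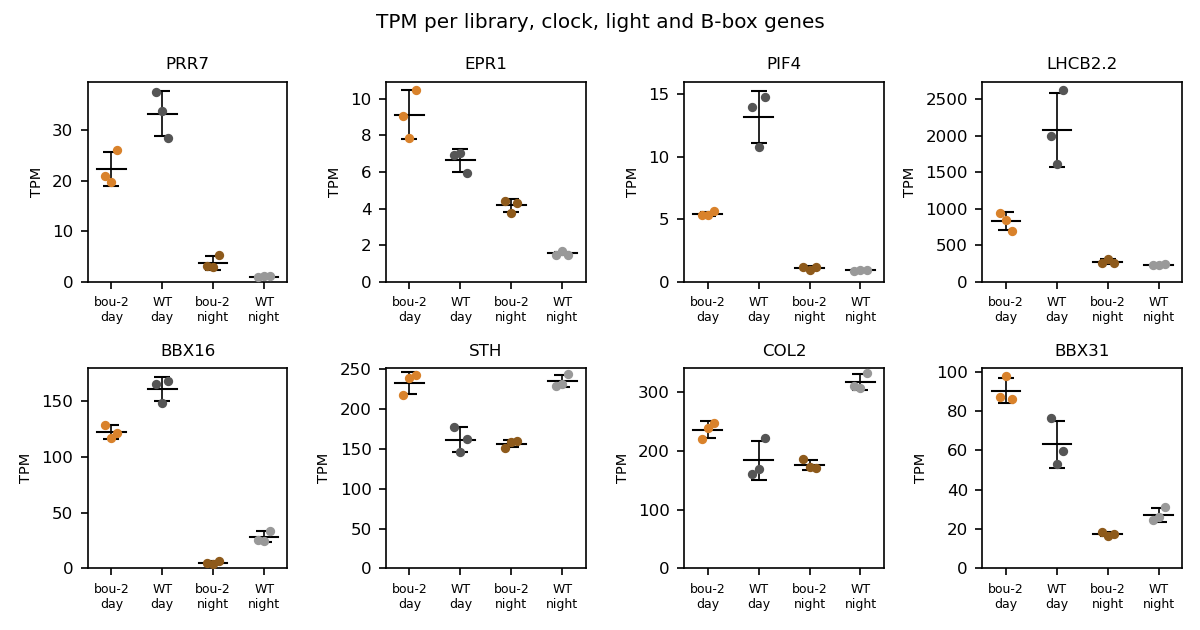
Transcript level in each library (TPM, linear axis from 0) is shown for 8 clock, light and B-box genes called for the difference, in bou-2 and WT at day and in bou-2 and WT at night, 3 points a group with the mean as a line and the SD as error bars. PRR7 lies at 19.8 to 26.1 TPM in bou-2 and 28.6 to 37.5 TPM in WT at day, and at 2.91 to 5.32 TPM in bou-2 and 0.947 to 1.1 TPM in WT at night.

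Nitrogen and sulfur genes were found among both directions. NRT1.1 (AT1G12110, chromosome 1, 4105223 to 4109601), a transporter and sensor of nitrate, had 106, 113 and 117 TPM in bou-2, against 77.3, 77 and 75.1 TPM in WT at day. At night it had 75.2, 69.2 and 71.6 TPM in bou-2, against 112, 118 and 127 TPM in WT. It was thus higher in bou-2 at day and lower at night, and the difference was 1.30 (standard error 0.12, adjusted p = 0.00228). AMT1;2, an ammonium transporter chosen after its values were seen, had 125, 128 and 124 TPM in bou-2, against 98, 87.6 and 134 TPM in WT at day, and 15.2, 16.1 and 15.5 TPM in bou-2, against 40.1, 45.2 and 52.4 TPM in WT at night, a difference of 1.80 (standard error 0.24, adjusted p = 0.00937). LBD38, a repressor of nitrate-responsive genes, had 15.1 ± 0.224 TPM in bou-2 and 18.6 ± 2.76 TPM in WT at day, and 35.6 ± 2.14 TPM in bou-2 and 21 ± 2.91 TPM in WT at night. Its difference was -1.05 (standard error 0.19, adjusted p = 0.0338), and it missed the threshold on removal of any of bou-2 day 1 to 3, bou-2 night 1 to 3 or WT night 1 to 3 (highest adjusted p 0.105). NRT1.1 and LBD38 were the called members of 29 nitrogen genes, with a median of 0.06, beside 1.18% of all genes called. There were 3 positive and 3 negative without WT day replicate 3, and 4 positive and 3 negative in DESeq2. The calls of NRT1.1 and AMT1;2 held under all 24 alternatives.

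SERAT2;1 (AT1G55920, chromosome 1, 20912116 to 20913565) encodes a plastidial serine acetyltransferase, which makes O-acetylserine, the carbon skeleton of cysteine, from serine. It had 131, 159.97 and 166 TPM in bou-2, against 43.6, 53.6 and 58.8 TPM in WT at day. At night the level was 25.4, 27.9 and 23.7 TPM in bou-2, against 37.8, 36.5 and 39.9 TPM in WT. Each bou-2 library was thus above each WT library at day and below each at night, with effects of 1.45 at day (adjusted p = 1.76e-04) and -0.67 at night (adjusted p = 0.00969) and a difference of 2.12 (standard error 0.22, adjusted p = 0.00281). GGT1, a gamma-glutamyl transpeptidase that breaks down glutathione outside the cell, was lower in bou-2 at both times and by more at day. It had 6.06, 5.63 and 5.56 TPM in bou-2, against 17.3, 19.5 and 18.5 TPM in WT at day, and 14.1, 13.7 and 11.8 TPM in bou-2, against 19.7, 19.3 and 20.5 TPM in WT at night, a difference of -1.08 (standard error 0.15, adjusted p = 0.00947). GSTU7, a glutathione S-transferase of the tau class, had 66.4, 89.1 and 81.5 TPM in bou-2, against 10.3, 19.5 and 12.8 TPM in WT at day. Its night libraries held 14.8, 15.5 and 16.3 TPM in bou-2, against 9.99, 10.6 and 12.2 TPM in WT. The groups did not overlap at either time, and the difference was 1.97 (standard error 0.31, adjusted p = 0.0201). These 3 were the called genes among 107 that the deposited table assigns to sulfur metabolism, with a median of -0.03. Of all genes tested 1.18% were called. Without WT day replicate 3 there were 6 positive and 3 negative, and in DESeq2 10 positive and 4 negative. SERAT2;1 and GGT1 kept their calls under all 24 alternatives, and GSTU7 missed the threshold on removal of any of bou-2 day 2 and 3 or bou-2 night 1 to 3 (highest adjusted p 0.0668). None of 14 genes of the O-acetylserine cluster and low sulfur was called in edgeR's quasi-likelihood test, and 1 was negative in DESeq2. Of 29 glucosinolate genes 0 were called in edgeR, with a median difference of 0.87, and 9 were positive in DESeq2. Over all 20458 genes tested, DESeq2 called 583 positive and 508 negative.

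Several UDP-glycosyltransferases (UGT) had a higher bou-2 effect at day than at night. These enzymes attach sugars to flavonoids, hormones and other small molecules. UGT73B2 (AT4G34135, chromosome 4, 16345150 to 16347434), a flavonol glucosyltransferase, had 30.7, 34.1 and 39.9 TPM in bou-2, against 2.4, 6.3 and 4.64 TPM in WT at day. At night it had 8.28, 7.95 and 9.19 TPM in bou-2, against 7.41, 9.59 and 9.43 TPM in WT, where the groups overlapped, and the difference was 3.03 (standard error 0.40, adjusted p = 0.00843). UGT75B1 had 53.5, 56.2 and 57.4 TPM in bou-2, against 6.67, 8.23 and 14 TPM in WT at day, and 16.4, 17.8 and 15.8 TPM in bou-2, against 11.6, 12.7 and 13.9 TPM in WT at night, a difference of 2.14 (standard error 0.34, adjusted p = 0.0212). UGT78D1, which adds rhamnose to flavonols, was lower in bou-2 at both times, with 88 ± 7.003 TPM in bou-2 and 111 ± 8.74 TPM in WT at day, and 48.2 ± 0.586 TPM in bou-2 and 107 ± 7.75 TPM in WT at night, and differed by 0.83 (standard error 0.13, adjusted p = 0.0188). UGT84A1, which acts on hydroxycinnamic acids, had 5.08 ± 0.354 TPM in bou-2 and 1.77 ± 0.847 TPM in WT at day, and 1.07 ± 0.258 TPM in bou-2 and 1.79 ± 0.489 TPM in WT at night, a difference of 2.30 (standard error 0.47, adjusted p = 0.0499). By a match of words in the description, 10 of 119 genes were positive and 0 negative, beside 0.538% and 0.645% of all genes. Their median was 0.11, and GBSS1, a starch synthase, is among these 10. The match is not the UGT family alone: it takes in GBSS1, ATTPS6, XTH33, the UDP-glucose dehydrogenase UGD1 and others, and it leaves out TPS8, TPS10 and TPS11, which also belong to glycosyltransferases and had a negative difference. Of 17 flavonoid genes 2 were positive, UGT78D1 and MYB11, and the median was 0.78, with 5 positive and 0 negative in DESeq2. MYB11, a factor of flavonol synthesis, was low, with 3.56 ± 0.255 TPM in bou-2 and 0.835 ± 0.375 TPM in WT at day, and 0.133 ± 0.0686 TPM in bou-2 and 0.323 ± 0.109 TPM in WT at night, a difference of 3.37 (standard error 0.63, adjusted p = 0.0382). It missed the threshold on removal of any of bou-2 day 1 to 3, WT day 2, bou-2 night 1 to 3 or WT night 1 to 3, and also under the replicate block (highest adjusted p 0.115). UGT73B2 kept its call under all 24 alternatives. UGT75B1 missed the threshold on removal of any of bou-2 day 2 and 3, bou-2 night 1 to 3 or WT night 1 to 3 (highest adjusted p 0.0741), and UGT78D1 on removal of any of bou-2 day 2, bou-2 night 1 to 3 or WT night 1, and also under the replicate block (highest adjusted p 0.0696). UGT84A1 kept its call under 8 of the 24 alternatives and lost it, among others, without any 1 of the bou-2 libraries (highest adjusted p 0.143).

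Other genes with a higher bou-2 effect at day included regulators with stable calls. AT1G26790 (chromosome 1, 9273684 to 9275193), a Dof-type zinc finger protein, had 38.5, 42.5 and 43.5 TPM in bou-2, against 23.4, 20.4 and 27.8 TPM in WT at day. At night the level was 15, 15.6 and 12.9 TPM in bou-2, against 45.4, 43.7 and 47.8 TPM in WT, and the difference was 2.46 (standard error 0.20, adjusted p = 0.00129). AT2G15020, without a description, had 276, 287 and 291 TPM in bou-2, against 124, 141 and 166 TPM in WT at day, and 46.3, 49.9 and 46.9 TPM in bou-2, against 86.2, 89 and 101 TPM in WT at night, a difference of 1.95 (standard error 0.19, adjusted p = 0.00241). Both were thus higher in bou-2 at day and lower at night with no overlap of the libraries. AUF1, an F-box protein of auxin responses, had 130.2 ± 10.7 TPM in bou-2 and 50.8 ± 7.4 TPM in WT at day, and 29.3 ± 0.0783 TPM in bou-2 and 32.7 ± 3.36 TPM in WT at night, a difference of 1.54 (standard error 0.18, adjusted p = 0.00582). MAPKKK14, a protein kinase, had 33.5 ± 1.99 TPM in bou-2 and 10.2 ± 1.78 TPM in WT at day, and 9.01 ± 0.987 TPM in bou-2 and 8.23 ± 1.24 TPM in WT at night, a difference of 1.61 (standard error 0.20, adjusted p = 0.0072). OCT5, an organic cation transporter, had 29 ± 3.15 TPM in bou-2 and 7.57 ± 1.2 TPM in WT at day, and 12.2 ± 0.923 TPM in bou-2 and 9.33 ± 0.494 TPM in WT at night, and ACR8, an ACT domain protein, 19.4 ± 1.85 TPM in bou-2 and 8.16 ± 0.701 TPM in WT at day, and 19.3 ± 1.54 TPM in bou-2 and 17.4 ± 0.272 TPM in WT at night. For these the change in bou-2 was called at day and not at night. AT5G23240, a protein with a DNAJ domain, was higher in bou-2 at both times and by more at day, with 17.7, 19.8 and 19.2 TPM in bou-2, against 2.04, 2.23 and 1.51 TPM in WT at day, and 32, 39.8 and 44.3 TPM in bou-2, against 15, 18.7 and 20.8 TPM in WT at night. Its difference was 2.22 (standard error 0.24, adjusted p = 0.00298). AT1G05870, of unknown function (DUF1685), had 127 ± 4.01 TPM in bou-2 and 59.99 ± 8.89 TPM in WT at day, and 39.98 ± 1.51 TPM in bou-2 and 43.5 ± 3.78 TPM in WT at night, a difference of 1.21 (standard error 0.14, adjusted p = 0.00567), with overlap of the groups at night. Calls of all genes of this paragraph up to here held under all 24 alternatives. PIN3, an auxin efflux carrier, had 77.7 ± 8.23 TPM in bou-2 and 56.1 ± 4.64 TPM in WT at day, and 68.7 ± 4.35 TPM in bou-2 and 94.7 ± 3.94 TPM in WT at night, a difference of 0.95 (standard error 0.15, adjusted p = 0.0211). It was the 1 called gene of 13 auxin genes (3 positive without WT day replicate 3, 2 in DESeq2) and missed the threshold on removal of any of bou-2 day 2 and 3, bou-2 night 1 to 3 or WT night 1 and 2 (highest adjusted p 0.0747). Of all genes tested 0.538% were called positive in edgeR.

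An iron storage gene and a starch gene had positive differences. FER3, a plastid ferritin that stores iron, had 118 ± 6.99 TPM in bou-2 and 55.9 ± 3.57 TPM in WT at day, and 107 ± 6.87 TPM in bou-2 and 89.7 ± 6.3 TPM in WT at night. Its difference was 0.83 (standard error 0.15, adjusted p = 0.0368), and it was the 1 called gene of 13 iron genes, whose median was 0.83 (2 positive without WT day replicate 3, 5 in DESeq2). GBSS1, the granule-bound synthase that makes amylose in starch, had 422 ± 31.7 TPM in bou-2 and 566 ± 102 TPM in WT at day, and 76.1 ± 4.12 TPM in bou-2 and 276 ± 92.3 TPM in WT at night. Its bou-2 effect was -0.51 at day (adjusted p = 0.0754) and -1.95 at night (adjusted p = 1.62e-04), with a difference of 1.45 (standard error 0.27, adjusted p = 0.037). It was the 1 called gene of 32 starch genes, and 5 were positive without WT day replicate 3 and in DESeq2. Over all genes tested 0.538% were called positive in edgeR, the background for the iron and starch lists. FER3 missed the threshold on removal of any of bou-2 day 2 and 3, WT day 2, bou-2 night 1 to 3 or WT night 1 and 2, and also under the replicate block (highest adjusted p 0.0987). GBSS1 missed it on removal of any of bou-2 day 1 to 3, WT day 2, bou-2 night 1 to 3 or WT night 1, and also with limma on log2(TPM + 0.1) and under the replicate block (highest adjusted p 0.104).

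The stress and hormone genes named here each had a negative difference and lost their call when 1 of several libraries was left out. HAI2, a protein phosphatase 2C induced by abscisic acid (ABA), had 1.09, 1.21 and 1.15 TPM in bou-2, against 5.81, 2.56 and 4.44 TPM in WT at day, and 2.6, 4.04 and 2.92 TPM in bou-2, against 0.908, 0.389 and 1.55 TPM in WT at night, a difference of -3.60 (standard error 0.60, adjusted p = 0.0249). HB-7, a homeodomain factor induced by ABA and drought, had 47.1 ± 7.53 TPM in bou-2 and 41.7 ± 11.4 TPM in WT at day, and 46.5 ± 8.04 TPM in bou-2 and 13 ± 3.97 TPM in WT at night, a difference of -1.66 (standard error 0.32, adjusted p = 0.0397). They were the called members of 16 ABA genes, whose median was -1.60. Over all genes tested 0.645% were called negative in edgeR, the background also for the cytokinin and heat shock lists below. There were 4 negative without WT day replicate 3, and 9 in DESeq2, beside 534 and 508 of all 20458 genes tested. ARR6, a type-A response regulator of cytokinin, had 15.6 ± 4.14 TPM in bou-2 and 24.7 ± 6.81 TPM in WT at day, and 25.2 ± 1.92 TPM in bou-2 and 10.02 ± 3.36 TPM in WT at night, a difference of -1.99 (standard error 0.41, adjusted p = 0.0499). It was the 1 called of 8 cytokinin response regulators, with 2 negative and 1 positive without WT day replicate 3 and 4 negative in DESeq2. HSFB2A, a heat shock factor of class B, had 3.4 ± 0.931 TPM in bou-2 and 5.95 ± 0.923 TPM in WT at day, and 4.79 ± 0.964 TPM in bou-2 and 2.74 ± 0.433 TPM in WT at night, a difference of -1.61 (standard error 0.30, adjusted p = 0.0368), and was the 1 called of 22 heat shock genes, with 3 negative and 1 positive in DESeq2. CYP71A13, an enzyme of camalexin synthesis, had 7.23, 3.87 and 7.48 TPM in bou-2, against 14.6, 42.3 and 23.6 TPM in WT at day, and 21.3, 25.1 and 42.3 TPM in bou-2, against 15.2, 15.4 and 19.2 TPM in WT at night, a difference of -2.97 (standard error 0.54, adjusted p = 0.0368). HAI2 missed the threshold on removal of any of bou-2 day 1 to 3, bou-2 night 1 to 3 or WT night 1, and also under the replicate block (highest adjusted p 0.0793). HB-7 missed it on removal of any of bou-2 day 1 to 3, WT day 1, bou-2 night 1 to 3 or WT night 1 and 2, and also with limma on log2(TPM + 1), with limma on log2(TPM + 0.1) and under the replicate block (highest adjusted p 0.126). CYP71A13 missed it on removal of any of bou-2 day 1 to 3, bou-2 night 1 to 3 or WT night 1 to 3, and also under the replicate block (highest adjusted p 0.0975), and HSFB2A on removal of any of bou-2 day 1 and 2, WT day 1 and 2, bou-2 night 1 to 3 or WT night 1 to 3, and also with limma on log2(TPM + 0.1), under the replicate block and after thinning (highest adjusted p 0.103). ARR6, with an adjusted p close to the threshold, kept its call under 7 of the 24 alternatives and lost it without any 1 library other than WT day replicates 2 and 3 (highest adjusted p 0.142).

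Large negative differences were also found in a methyltransferase, a small protein and genes of the DUF584 family of unknown function. PXMT1, a methyltransferase, had 50.5, 38.2 and 31.7 TPM in bou-2, against 39.2, 113 and 33.1 TPM in WT at day. Its night libraries held 125, 167 and 278 TPM in bou-2, against 23.4, 16.3 and 27.2 TPM in WT, and the difference was -3.69 (standard error 0.65, adjusted p = 0.0317). DIP2, a small protein, had 25.7, 31.7 and 24 TPM in bou-2, against 121, 52.3 and 73.3 TPM in WT at day, and 19.2, 24.6 and 29.1 TPM in bou-2, against 2.4, 1.14 and 6.58 TPM in WT at night, a difference of -4.39 (standard error 0.64, adjusted p = 0.0142). The DUF584 genes AT5G60680 and AT5G03230 were lower in bou-2 at day, with 6.28 ± 1.55 TPM in bou-2 and 24.4 ± 8.83 TPM in WT for the one and 12 ± 1.65 TPM in bou-2 and 48.1 ± 18.4 TPM in WT for the other. At night neither effect was called in edgeR, at 0.46 (adjusted p = 0.11) and 0.18 (adjusted p = 0.569) in the same order. AT5G60680 differed between the times by -2.52 (standard error 0.29, adjusted p = 0.00505), and AT5G03230 by -2.28 (standard error 0.29, adjusted p = 0.00744). Their calls held under all 24 alternatives. By description 4 of 14 DUF584 genes had a negative difference and 0 a positive one, beside 0.645% and 0.538% of all genes. Of the other two, AT5G45630 had 5.2, 5.63 and 3.46 TPM in bou-2, against 20.4, 6.41 and 5.38 TPM in WT at day, and 7.3, 7.89 and 9.76 TPM in bou-2, against 0.744, 0.75 and 0.342 TPM in WT at night, with overlap of the groups at day and a difference of -4.88 (standard error 0.75, adjusted p = 0.0184). AT2G28400 had 2.74, 5.15 and 9.1 TPM in bou-2, against 22.6, 16.8 and 6.05 TPM in WT at day, and 17.1, 20.05 and 23.8 TPM in bou-2, against 3.89, 3.18 and 5.38 TPM in WT at night, again with overlap at day, and a difference of -3.71 (standard error 0.64, adjusted p = 0.0301). AT5G45630 missed the threshold on removal of any of bou-2 day 3, bou-2 night 1 to 3 or WT night 1 and 2 (highest adjusted p 0.0597), and AT2G28400 on removal of any of bou-2 day 2, bou-2 night 1 to 3 or WT night 1 to 3, and also under the replicate block (highest adjusted p 0.0884). Not all of the family went this way, as 2 of the 14 DUF584 genes lay above 0. Of these, AT4G26950 had a second transcript called positive in edgeR (1.68, adjusted p = 0.0397). Its primary transcript was not called (1.69, adjusted p = 0.156). DIP2 missed the threshold on removal of any of bou-2 day 3, bou-2 night 3 or WT night 1 (highest adjusted p 0.0559), and PXMT1 on removal of any of bou-2 day 1 to 3, bou-2 night 1 to 3 or WT night 1 to 3, and also under the replicate block (highest adjusted p 0.0875).

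Further genes were called at 1 time alone or at both with 1 sign. YLS9, a hydroxyproline-rich protein of the late embryogenesis abundant class, had 3.93 ± 1.72 TPM in bou-2 and 6.27 ± 4.54 TPM in WT at day, and 29.9 ± 3.4 TPM in bou-2 and 3.71 ± 1.3 TPM in WT at night, so that the groups overlapped at day, and the difference was -3.70 (standard error 0.66, adjusted p = 0.0331). AT4G15680, described as a thioredoxin superfamily protein, was higher in bou-2 at both times and by more at night, with 11 ± 3.26 TPM in bou-2 and 3.78 ± 0.78 TPM in WT at day, and 24.3 ± 1.5 TPM in bou-2 and 0.891 ± 0.564 TPM in WT at night, a difference of -3.30 (standard error 0.58, adjusted p = 0.0318). AT1G30250, without a description, had 2.97 ± 0.889 TPM in bou-2 and 11.7 ± 4.07 TPM in WT at day, and 10.04 ± 1.25 TPM in bou-2 and 4.42 ± 2.29 TPM in WT at night, a difference of -3.14 (standard error 0.59, adjusted p = 0.0385). Its effect was called at day alone. AT4G37180, a homeodomain-like protein, had 8.85 ± 1.09 TPM in bou-2 and 9.89 ± 1.34 TPM in WT at day, and 20.5 ± 1.17 TPM in bou-2 and 9.55 ± 0.457 TPM in WT at night, and a difference of -1.24 (standard error 0.14, adjusted p = 0.00567) with an effect called at night alone. ML4, a MEI2-like protein, had 5.82 ± 0.799 TPM in bou-2 and 10.4 ± 1.73 TPM in WT at day, and 11.9 ± 0.201 TPM in bou-2 and 9.78 ± 0.631 TPM in WT at night, and a difference of -1.09 (standard error 0.13, adjusted p = 0.0072) with an effect called at day alone. AT2G27420 and AT1G76600 had a positive difference. AT2G27420, a cysteine proteinase, was lower in bou-2 at both times and by more at night, with 54.9 ± 4.65 TPM in bou-2 and 110.4 ± 41 TPM in WT at day, and 2.03 ± 0.341 TPM in bou-2 and 15.8 ± 0.688 TPM in WT at night, a difference of 1.96 (standard error 0.37, adjusted p = 0.0397). AT1G76600, without a description, had 53 ± 6.81 TPM in bou-2 and 5.74 ± 3.48 TPM in WT at day, and 6.65 ± 0.781 TPM in bou-2 and 4.13 ± 1.46 TPM in WT at night, a difference of 2.55 (standard error 0.51, adjusted p = 0.0473), with overlap of the groups at night. AT4G37180 and ML4 kept their calls under all 24 alternatives. AT4G15680 and YLS9 kept theirs under 16 and 14 (highest adjusted p 0.0962 and 0.0936), and AT1G30250, AT2G27420 and AT1G76600 under 13, 12 and 11 (highest adjusted p 0.11, 0.12 and 0.13). Each of these 5 missed the threshold without any 1 of the bou-2 night libraries, among others.

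Several lists, of pathways next to BOU and of others, had no called gene in edgeR, where 1.18% of all genes tested were called. At that share a list of this size can well hold 0, so these counts are a description only. Of 27 photorespiration genes 0 passed the test in edgeR, with a median difference of 0.20, while 8 were positive without WT day replicate 3 and 6 in DESeq2. Over all 20458 genes tested, 548 were positive and 534 negative without that library, and 583 and 508 in DESeq2. Of 43 Calvin-Benson-Bassham cycle genes in the deposited table, 0 were called, against 8 positive without that library and 4 in DESeq2. Of 19 serine biosynthesis genes 0 were called, against 3 positive and 1 negative without it, and 1 positive and 1 negative in DESeq2. Of 19 salicylic acid genes 0 were called, with a median of -1.44, against 5 negative without it and 4 in DESeq2. Of 23 jasmonate genes 0 were called in edgeR, without that library or in DESeq2. The lists of cold, carbon starvation, raffinose, rapid stress, mitochondrial retrograde, wax, cell cycle and ribosome genes held 0 called genes in edgeR. In DESeq2 there were 3 negative cold genes, 1 carbon starvation gene, 1 raffinose gene, 2 rapid stress genes and 3 mitochondrial retrograde genes, all negative, and none in the other lists. Over all genes 3383 (16.5%) had an unadjusted p under 0.05 for the difference. A gene that was not called is not shown to respond alike at both times.

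**Figure D5:**
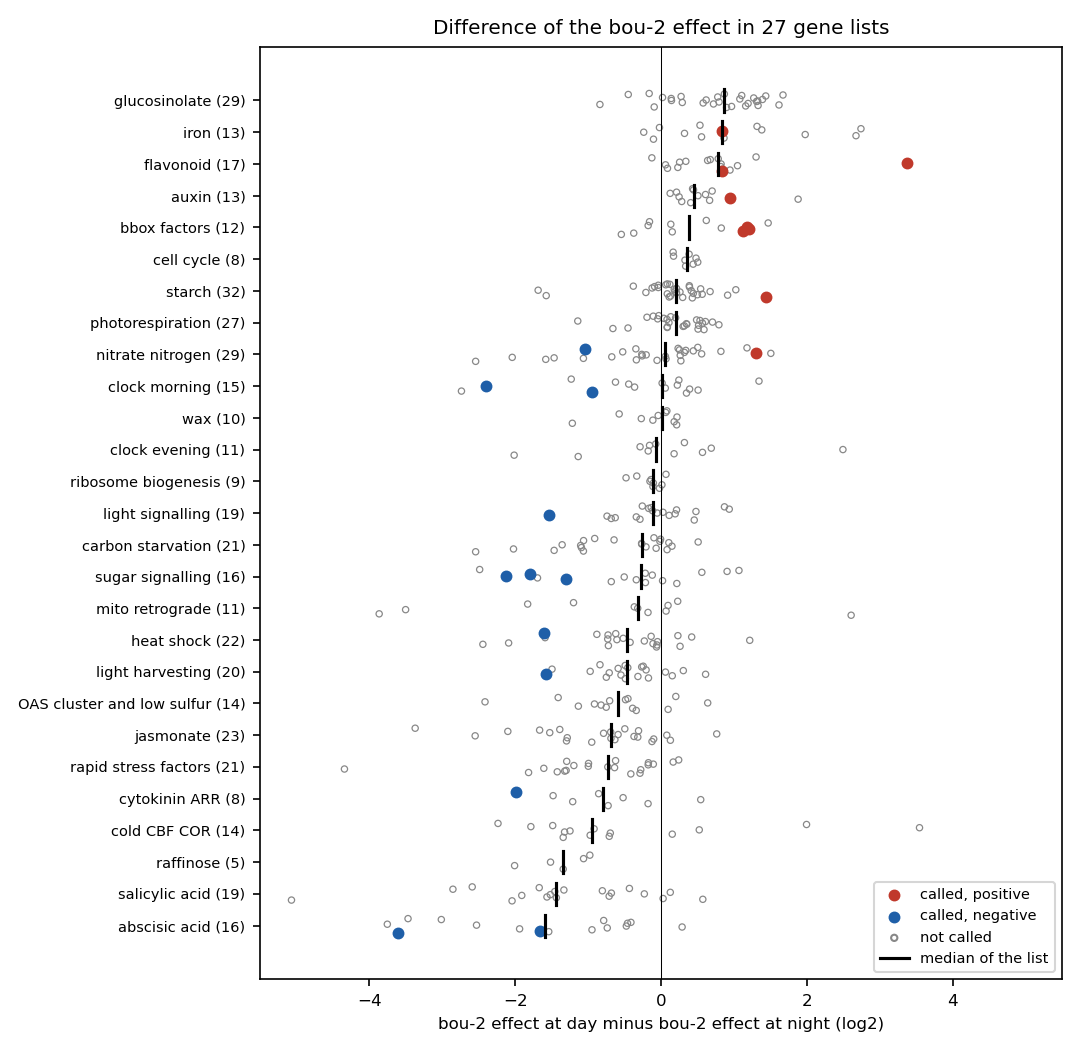
The bou-2 effect at day minus that at night (log2, x axis) is shown for each tested gene of 27 pathway lists (y axis), with called genes coloured and the median of each list as a bar; 1 gene lies beyond the axis limits. The list medians lie on both sides of 0, from -1.60 in the ABA list to 0.87 in the glucosinolate list, and most lists hold 0 or 1 called gene.

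The threshold itself divided like values. Just inside it, ARR6 had a difference of -1.99 at an adjusted p of 0.0499, AT3G15140 of 1.06 at 0.0499 and AT1G28260 of -1.95 at 0.04996. Just outside, AER (AT5G16970) had a difference of 1.04 at 0.0508, AT5G61560 of -1.66 at 0.0517 and AT1G01500 of -0.82 at 0.0518. A further 274 genes had an adjusted p between 0.05 and 0.1. Of the 242 genes, 13 stayed below a mean of 5 TPM in each of the 4 groups and none was on the chloroplast or mitochondrial genome. AT3G15310, with 64.8 ± 1.77 TPM in bou-2 and 28.6 ± 8.55 TPM in WT at day, and 17.7 ± 2.36 TPM in bou-2 and 39.3 ± 3.77 TPM in WT at night, is annotated as a transposable element gene and may share reads with copies.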

How the data were processed

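RNA was sequenced from bou-2 and WT leaves at day and at night (4 groups, 3 libraries each). The estimated counts and TPM were deposited as kallisto 0.43.0 output by the authors, the counts without normalization and TPM scaled per library; the submitters' notes also name CASAVA and sleuth 0.28.1. The log2 ratios and q-values (adjusted p-values) deposited by the authors compare the groups and were not used, nor were 8 columns of their group means and SD. The table held 41415 lines, of which 23 repeats were dropped. Library totals were 15911356 to 33046562.

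Estimated counts were rounded, filtered with filterByExpr (minimum count 10, total 15, proportion 0.7), scaled by TMM and fitted with edgeR 4.0.16 in R 4.3.3 over 26153 transcripts, 1 mean per group; the common dispersion was 0.0807. Sleuth could not be run on the table. Log2 effects come from this fit and levels are deposited TPM (SD over 3 libraries). Adjusted p-values are Benjamini-Hochberg over all transcripts. Alternatives used limma 3.58.1, DESeq2 1.42.0, other filters and scalings, and libraries left out. Scripts were tested on simulated data. Labels name the libraries of a group replicates, and p-values measure the spread between them.

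Named genes were the 12 largest differences per direction at 5 TPM or more, the 12 smallest adjusted p per direction, the 12 first genes of opposite sign, up to 4 called genes per list, and BOU. Members, lists and rule were chosen with earlier results of these data known. Lists are described by counts and medians. Promoters and coordinates are RefSeq, TAIR10.1.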

Additional observations from a re-analysis of the deposited data

Results flagged for a closer look

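The bou-2 effect differed between day and night, by the test of the difference itself, in 110 genes in the positive direction (0.538% of the genes tested), in 132 in the negative direction (0.645%) and with opposite signs at the 2 times in 61 (0.298%). The 12 genes of opposite sign with the smallest adjusted p are named for the same reason. A positive difference was found for AT1G26790 (2.46), NRT1.1 (1.30), AT2G15020 (1.95), SERAT2;1 (2.12) and STH (1.12) on the log2 scale. A negative one was found for AT3G07350 (-3.88), AT5G19120 (-3.74), ATCTH (-2.75), AT3G59940 (-2.27), AT2G20670 (-2.26), AT5G21940 (-1.80) and AT5G59080 (-1.76). Each of these 12 kept its call under all 24 alternatives. The WT day libraries were the most variable and WT day replicate 3 stood lowest in TMM factor (0.892), and the part of this spread in the counts of called genes was not tested.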

How the results depend on the processing

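The sign of the difference of each of the 242 genes was the same under each alternative that gave a value, while calls were less stable: 46 genes were called under all 24 alternatives, 60 under 20 or more and 90 under 12 or fewer. The numbers of genes with a positive difference, a negative difference and opposite signs were 110, 132 and 61 as reported. They were 583, 508 and 109 with DESeq2's Wald test, 206, 205 and 97 with counts summed per gene, and 21, 21 and 13 at an adjusted p under 0.01. With limma on log2(TPM + 0.1) the negative count was 79. Leaving out 1 library gave 22 to 548 positive genes, 30 to 534 negative genes and 22 to 177 genes of opposite sign, the highest values each without WT day replicate 3. The 9 removals of a bou-2 day, bou-2 night or WT night library gave fewer calls than reported in each direction. With the replicate number as a block (replicate block) the counts were 49, 47 and 35; the numbers do not pair the libraries, since the correlation of deviations in the 18 same-number pairs ran from -0.121 to 0.067. DESeq2 size factors, no filter, thinned counts, the 10 most abundant or the organelle transcripts left out, adjustment over primary transcripts alone, and a weight per group (added after the data were seen) kept each count within 1.5 times. Of the 242 genes, 13 stayed under a mean of 5 TPM in each group; whether depth limited these calls more than others was not tested. Thinning to the lowest library total gave 203 called genes, of which 185 were among the 242.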

Other observations

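Other called genes, chosen after their values were seen, act in redox, vitamin, hormone and defence pathways. WCRKC1, a plastid thioredoxin, had 17.3, 17.4 and 14.2 TPM in bou-2, against 5.8, 5.22 and 6.12 TPM in WT at day, while at night it had 37.9, 36.9 and 35.9 TPM in bou-2, against 33.8, 39.2 and 40.9 TPM in WT, and the difference was 1.55 (standard error 0.20, adjusted p = 0.00843). NSP5, a nitrile specifier protein of glucosinolate breakdown, had 92.1, 78.8 and 91.5 TPM in bou-2, against 119.5, 97.3 and 82.6 TPM in WT at day, and 135, 144 and 157 TPM in bou-2, against 80.8, 73.8 and 83.9 TPM in WT at night, a difference of -1.04 (standard error 0.14, adjusted p = 0.0096). MAX2, the F-box protein of strigolactone signalling, had 15.2 ± 0.779 TPM in bou-2 and 14.5 ± 1.12 TPM in WT at day, and 16.3 ± 0.344 TPM in bou-2 and 8.96 ± 0.587 TPM in WT at night, a difference of -0.78 (standard error 0.11, adjusted p = 0.0101). In the first the groups were apart at day alone, and in the other 2 the effect was called at night alone. ERF38, a factor of the ERF family, was higher in bou-2 at day and lower at night, with 18.5 ± 2.51 TPM in bou-2 and 11.9 ± 0.773 TPM in WT at day, and 8.8 ± 0.463 TPM in bou-2 and 15.5 ± 1.49 TPM in WT at night. The calls of these 4 genes held under all 24 alternatives. VTC2, which acts in ascorbate synthesis, was among the most abundant, with 1247 ± 106 TPM in bou-2 and 1105 ± 50.8 TPM in WT at day, and 414 ± 18.4 TPM in bou-2 and 717 ± 138 TPM in WT at night, a difference of 0.98 (standard error 0.16, adjusted p = 0.0221). It missed the threshold on removal of any of bou-2 day 2 and 3 or bou-2 night 1 to 3 (highest adjusted p 0.0802). PPCK1, the kinase of phosphoenolpyruvate carboxylase, had 22.3 ± 1.24 TPM in bou-2 and 50.6 ± 11.5 TPM in WT at day, and 40.7 ± 12.9 TPM in bou-2 and 29.3 ± 2.24 TPM in WT at night. Its difference was -1.64 (standard error 0.30, adjusted p = 0.0368), and it missed the threshold on removal of any of bou-2 day 1 to 3, WT day 1 and 2, bou-2 night 2 and 3 or WT night 1 to 3, and also under the replicate block and with limma-voom with a weight per group (highest adjusted p 0.102).

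Of the 262 transcripts called for the difference, 20 were not the transcript by which their gene was read, and 15 of them belong to genes whose primary transcript was not called. The second transcript of CRY2, a blue light receptor, had 12, 12.6 and 17.9 TPM in bou-2 at day, against 6.06, 4.99 and 3.75 TPM in WT. At night it had 17.4, 16.7 and 21.1 TPM in bou-2, against 22.8, 14 and 17.3 TPM in WT, so its groups were apart at day alone. Its difference was 1.52 (standard error 0.29, adjusted p = 0.0384), against -0.29 (adjusted p = 0.467) in the primary transcript. For THIC, an enzyme of thiamin synthesis, the second transcript had 22.9, 25.9 and 25.8 TPM in bou-2 at day, against 10.9, 11.5 and 12 TPM in WT, and a difference of 1.01 (standard error 0.16, adjusted p = 0.0184), against 0.75 (adjusted p = 0.299) in the primary one. The second transcript of APE2, the triose phosphate translocator, had 11.8, 10.2 and 10.9 TPM in bou-2 at day, against 23.7, 18.9 and 22.9 TPM in WT, and a difference of -0.85 (standard error 0.16, adjusted p = 0.0398). Reads are divided among transcripts of a gene by estimation, and its part in these values was not tested.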
